A study of Mus musculus with 6 samples.

Results

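The AP-1 genes of mouse bone marrow cells were examined with and without Dnmt3a: the Fos family (Fos, Fosb, Fosl1 and Fosl2), the Jun family (Jun, Junb and Jund), and Atf3, Batf and Batf3. The members were taken by gene symbol from the deposited expression table, not by a cut on their values. They were, however, chosen with earlier results of these data known. All 10 were found among 15139 rows. All 10 also reached 1 FPKM (fragments per kilobase of transcript and scaled to the library's mapped fragments, a level per length) in at least 2 libraries, the minimum for testing that 11365 genes met.

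Both groups were primary bone marrow cells of mice labelled MxCre+v, where MxCre is a Cre recombinase under the interferon-responsive Mx1 promoter, and they differed in the labels as Dnmt3a+/+ (WT) and Dnmt3a-/- (knockout). The knockout samples are also called a knockdown in one of their fields. Cells of both genotypes grew in RPMI with 10% fetal bovine serum, IL3 at 10 ng/ml and SCF at 50 ng/ml, cytokines that support mast cells and immature myeloid cells, and were taken for mRNA sequencing in week 1. The sources used here give neither the age of the mice, nor how Cre was induced, nor whether replicates were separate animals or cultures, so p-values here reflect how far these particular libraries scatter, and that scatter may be technical. WT had 3 libraries and the knockout 2, its replicates 2 and 3. Knockout replicate 1 was not analysed here.

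Dnmt3a, the DNA methyltransferase named in the genotype, stood at 6.68, 9.99 and 9.04 FPKM in WT and at 2.58 and 3.42 FPKM in the knockout, a fall of the log2(FPKM + 1) level by 1.25 ± 0.17 (SE, limma adjusted p = 0.00279). No knockout library reached the lowest WT library. The FPKM of a library summed to 560387 to 604368, and 11038 to 11090 genes reached 1 FPKM. FPKM hold no read totals, so the depth is unknown. The sexes were not balanced: Xist and Ddx3y marked WT replicates 2 and 3 as female and the other 3 libraries as male.

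AP-1 is a dimer of basic leucine zipper proteins that binds a short palindromic DNA site. Fos proteins cannot pair with each other and need a Jun partner, whereas Jun proteins also pair among themselves and with ATF and BATF proteins. Fos, Fosb, Jun and Junb are immediate early genes: their transcription starts within minutes of a growth factor, cytokine or stress signal, through MAP kinases, SRF with its cofactors, and CREB, and their mRNAs are short-lived. In mast cells and other myeloid cells AP-1 acts on cytokine and protease genes downstream of KIT, the SCF receptor, and of the IgE receptor. BATF proteins lack a transactivation domain and act with Jun and IRF proteins, and Batf3 is known for its need in the cross-presenting dendritic cell lineage.

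Of the 10 members, 6 rose in the knockout, namely Fosb, Fos, Jun, Junb, Batf and Jund, while Atf3 and Batf3 fell. Fosl1 and Fosl2 did not pass the test. The background of the comparison was large: 22.1% of all tested genes passed it, 9.08% upward and 13.0% downward. The median log2 change was 0.68 over the members and -0.04 over all tested genes, and the median size of the change regardless of sign was 1.00 against 0.18. In 9 of the 10 members the knockout libraries did not overlap the WT libraries, which held for 51.1% of all tested genes. In a mixed culture, fewer cells of a type and less RNA per cell cannot be told apart. Markers of several cell types moved between the genotypes, with the values given further on, and their part in the changes of the members was not tested.

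**Figure D1:**
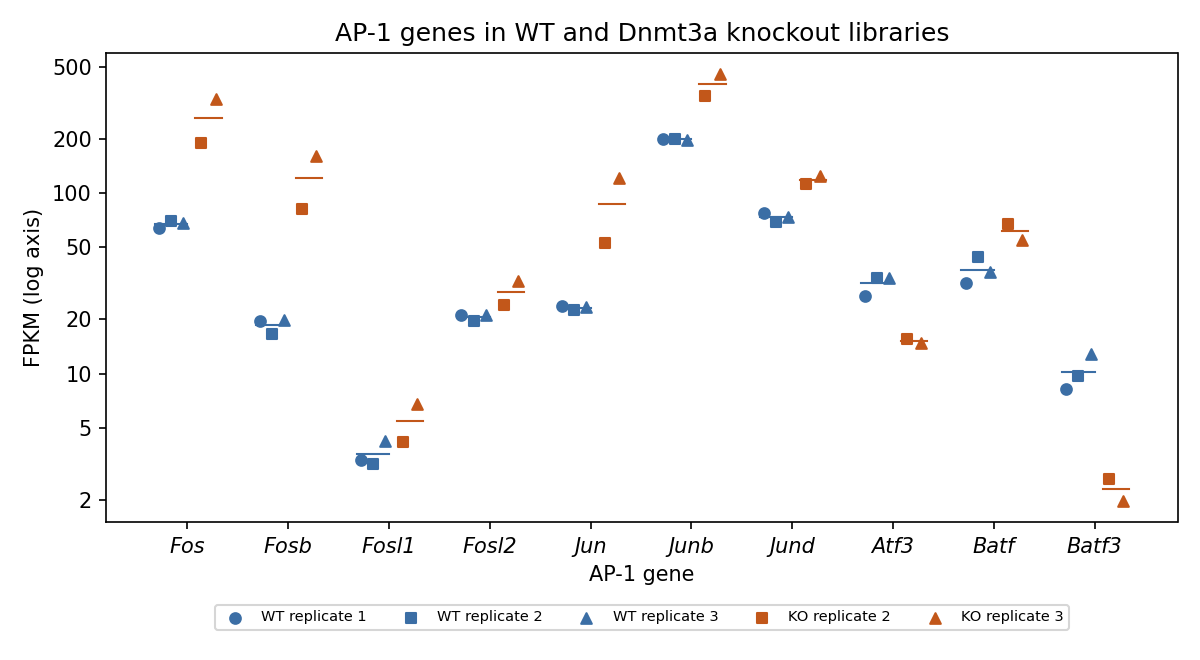
FPKM of each AP-1 gene (log axis) in the 3 WT libraries (blue) and the 2 knockout libraries (orange), 1 point per library with the marker showing the replicate number and a line at the group mean. Fos, Fosb and Jun lie well above WT and highest in knockout replicate 3, Atf3 and Batf3 lie below WT, and the Fosl1 libraries overlap.

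The promoters of the members that rose the most (Fos, Fosb and Jun) and of those that fell (Atf3 and Batf3) are shown to set their upstream letters beside the changes. Each line is the 250 bases before the RefSeq start (GRCm38.p6, 5′ to 3′ on the gene's strand): Fos chr12:85473640-85473889 (+), Fosb chr7:19310046-19310295 (-), Jun chr4:95052223-95052472 (-), Atf3 chr1:191183334-191183583 (-) and Batf3 chr1:191098164-191098413 (+). Capitals mark matches to TGACG on either strand (CGTCA where it reads from the other strand), the core of the cyclic AMP response element bound by CREB and ATF proteins, or to the related TGACNTCA.
Fos: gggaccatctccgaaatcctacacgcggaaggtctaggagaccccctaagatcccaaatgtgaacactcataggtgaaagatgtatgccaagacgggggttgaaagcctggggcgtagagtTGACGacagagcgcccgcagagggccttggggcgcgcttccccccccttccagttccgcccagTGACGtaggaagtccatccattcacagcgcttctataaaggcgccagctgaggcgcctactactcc
Fosb: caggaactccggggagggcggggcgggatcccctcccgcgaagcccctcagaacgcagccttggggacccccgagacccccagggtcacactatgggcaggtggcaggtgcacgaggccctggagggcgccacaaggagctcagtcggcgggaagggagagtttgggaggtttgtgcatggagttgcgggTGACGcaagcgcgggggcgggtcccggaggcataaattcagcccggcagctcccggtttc
Jun: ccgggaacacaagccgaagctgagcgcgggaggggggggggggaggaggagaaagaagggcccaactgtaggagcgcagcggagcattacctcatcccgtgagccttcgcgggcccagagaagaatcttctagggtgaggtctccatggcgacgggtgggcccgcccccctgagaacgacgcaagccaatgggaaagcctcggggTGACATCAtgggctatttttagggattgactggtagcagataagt
Atf3: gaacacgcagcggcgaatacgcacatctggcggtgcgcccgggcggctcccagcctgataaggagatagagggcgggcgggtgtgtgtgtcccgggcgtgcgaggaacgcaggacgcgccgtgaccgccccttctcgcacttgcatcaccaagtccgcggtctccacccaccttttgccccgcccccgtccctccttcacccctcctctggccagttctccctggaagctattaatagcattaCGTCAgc
Batf3: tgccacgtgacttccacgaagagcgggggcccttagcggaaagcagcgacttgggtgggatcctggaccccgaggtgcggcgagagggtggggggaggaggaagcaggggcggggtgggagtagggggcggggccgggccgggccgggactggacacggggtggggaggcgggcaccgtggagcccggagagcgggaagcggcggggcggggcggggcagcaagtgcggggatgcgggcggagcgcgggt

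Fos held TGACG at 129 to 125 and again at 66 to 62 bases before its start, and Fosb held it at 60 to 56. The start used for the Fosb window lies inside the gene's span (chr7:19302696-19310118). Its TGACG is therefore inside that span too, not upstream of it. Jun held no TGACG but had TGACATCA at 45 to 38 bases before its start. Atf3 had CGTCA at 7 to 3 bases before the RefSeq start, which is inside the first exon as GENCODE draws it, and Batf3 had no match. RefSeq gave a promoter for 9 members. Among them TGACG occurred in 5 (Fos, Fosb, Junb, Atf3 and Batf), so in members that rose and in one that fell, against 26.9% of the promoters of all tested genes. TGACNTCA, which overlaps TGACG where N is G, occurred in 1 of the 9 against 5.95%. The AP-1 site TGANTCA occurred in 0 of the 9 against 4.62%, and the CArG box of SRF in 0 against 1.14%. Junb and Jund are counted among the 9, although their RefSeq starts differ from those of GENCODE, so their windows may not hold the promoter. Only 250 bases were searched, so a 0 does not show that a gene lacks the site further upstream. TGACG was added to the search after these sequences had been seen, and a match is a string of letters, not a measured binding site.

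Fos (gene 14281, chr12:85473890-85477274), the founding member of the family, stood at 63.73, 70.0 and 68.14 FPKM in WT and at 189.15 and 333.02 FPKM in knockout replicates 2 and 3. Both knockout libraries were far above a narrow WT group, and replicate 3 was the higher. The mean went from 67.3 ± 3.22 (SD, n = 3) to 261 ± 102 (SD, n = 2) FPKM, and the log2 change was 1.88 with an SE of 0.21 (limma adjusted p = 0.0011). Fosb (gene 14282, chr7:19302696-19310118), whose truncated splice form is known to be long-lived, stood at 19.67, 16.57 and 19.76 FPKM in WT and at 81.93 and 159.99 FPKM in the knockout. The lowest knockout library was above the highest WT library, and the log2 change of 2.56 ± 0.25 (adjusted p = 0.00073) was the 3rd largest rise among tested genes. The rise of Fos was the 23rd largest.

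Fosl1 (gene 14283, chr19:5447698-5455938), a Fos-related gene that is itself an AP-1 target, was the lowest of the 4 Fos genes at 3.31, 3.16 and 4.22 FPKM in WT and 4.16 and 6.74 FPKM in the knockout. The groups overlapped, since knockout replicate 2 lay below WT replicate 3, and the log2 difference was 0.48 ± 0.19 (adjusted p = 0.123). Fosl2 (gene 14284, chr5:32136472-32157840), the other Fos-related gene, stood at 21.2, 19.52 and 21.04 FPKM in WT and 24.08 and 32.7 FPKM in the knockout. Its groups did not overlap, yet the log2 difference of 0.43 ± 0.13 missed the threshold (adjusted p = 0.0511). Both depended on knockout replicate 3: without replicate 2 the log2 differences were 0.77 for Fosl1 (adjusted p = 0.0268) and 0.64 for Fosl2 (adjusted p = 0.00616), and without replicate 3 they were 0.18 (adjusted p = 0.529) and 0.22 (adjusted p = 0.15).

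Jun (gene 16476, chr4:95049036-95052222), the main JNK substrate of the family, stood at 23.64, 22.59 and 23.45 FPKM in WT and at 53.16 and 121.9 FPKM in the knockout. The WT libraries were nearly level, and knockout replicate 3 lay far above replicate 2. The log2 change was 1.75 ± 0.29 (adjusted p = 0.00602), with 2.34 when replicate 2 was left out (adjusted p = 0.000515) and 1.16 when replicate 3 was (adjusted p = 0.00259). Junb (gene 16477, chr8:84976909-84978748), which can restrain Jun and is abundant in myeloid cells, was the highest member in every library. It stood at 199.16, 200.46 and 195.97 FPKM in WT and at 344.71 and 454.97 FPKM in the knockout, a log2 change of 0.99 ± 0.12 (adjusted p = 0.00148). Jund (gene 16478, chr8:70697739-70700616), the Jun gene that is transcribed most steadily in resting cells, stood at 77.89, 69.39 and 74.1 FPKM in WT and at 112.15 and 123.59 FPKM in the knockout. Its libraries were close within each genotype and apart between them, with a log2 change of 0.67 ± 0.08 (adjusted p = 0.0017).

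Atf3 (gene 11910, chr1:191170296-191183333), a stress-induced factor that represses many inflammatory genes, stood at 26.95, 33.91 and 33.92 FPKM in WT and at 15.55 and 14.72 FPKM in the knockout. Both knockout libraries were below all WT libraries, and the level fell by 1.01 ± 0.11 on the log2 scale (adjusted p = 0.00121). Batf (gene 53314, chr12:85686720-85709087), a partner of Jun and IRF4 in lymphoid and myeloid cells, stood at 31.85, 44.39 and 36.49 FPKM in WT and at 67.37 and 55.25 FPKM in the knockout. It rose by 0.70 ± 0.15 (log2, adjusted p = 0.0153), and here replicate 2 was the higher knockout library. Without that replicate the log2 difference was 0.56 and no longer passed (adjusted p = 0.0713). Batf3 (gene 381319, chr1:191098414-191108943) stood at 8.17, 9.7 and 12.87 FPKM in WT and at 2.6 and 1.97 FPKM in the knockout. The highest knockout library was far under the lowest WT library, and the level fell by 1.76 ± 0.18 (log2, adjusted p = 0.000881).

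**Figure D2:**
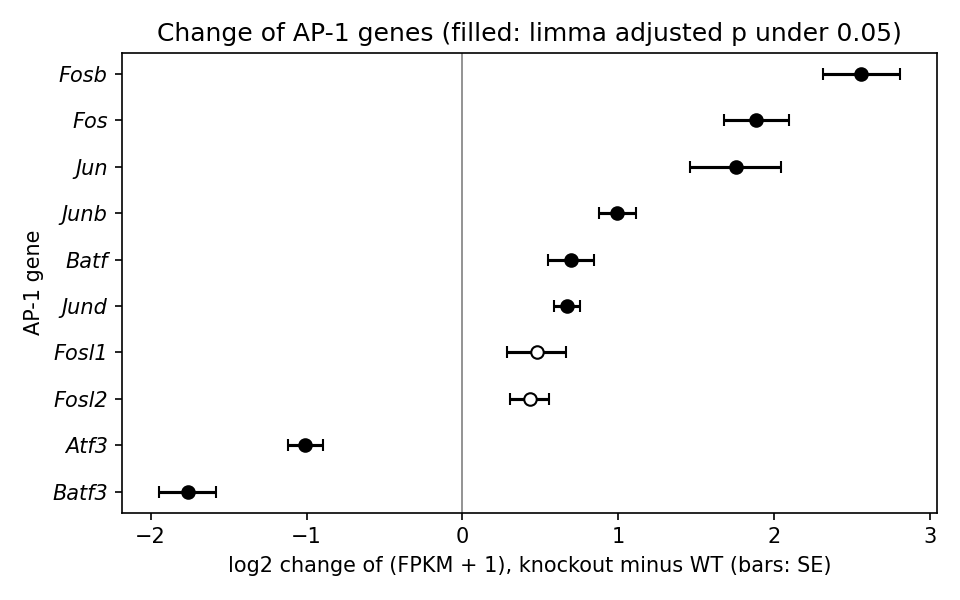
Difference of the mean log2(FPKM + 1) of each AP-1 gene, knockout minus WT, with its SE as a bar, and filled points for a limma adjusted p under 0.05. Changes run from -1.76 for Batf3 to 2.56 for Fosb, and Fosl1 and Fosl2 are the 2 open points.

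The knockout libraries stood apart in 8 of the members by more than in the median tested gene, and in Jund and Atf3 by less. For Fos, Fosb and Jun the log2 level of knockout replicate 3 exceeded that of replicate 2 by 0.81, 0.96 and 1.18, differences larger than those of 98.7%, 99.2% and 99.6% of tested genes. The median difference between the knockout libraries, regardless of sign, was 0.41 over the members and 0.16 over all tested genes. Within WT the members were spread about as widely as other genes, with a median range of 0.20 against 0.17. The 8 calls held with sex as a covariate, where Jun had the weakest (adjusted p = 0.0409). Both female libraries were WT, so the genotype term of that fit set the knockout against WT replicate 1 alone. It is therefore a check that rests on a single WT library.

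The summed level of the 10 members was 475.6, 489.7 and 490.0 FPKM in WT and 894.9 and 1305 FPKM in the knockout, a ratio of means of 2.27. The Fos family had the larger ratio of the 3 subgroups. Its sum went from 110 ± 2.73 (SD, n = 3) to 416 ± 165 (SD, n = 2) FPKM, a ratio of 3.78, while the Jun family sum went from 296 ± 4.48 to 605 ± 135 FPKM, a ratio of 2.05. The sum of Atf3, Batf and Batf3 stayed near 79 FPKM, with 79.4 ± 11.0 in WT and 78.7 ± 9.6 in the knockout. The Fos family made up 22.7%, 22.3% and 23.1% of the members' summed FPKM in WT and 33.4% and 40.8% in the knockout. The Jun family made up 61.0% ± 1.97 in WT and 55.3% ± 2.34 in the knockout. The sum of Fos family over Jun family FPKM was 0.359 to 0.386 in WT and 0.587 and 0.76 in the knockout.

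Within the Fos family, the share of Fosb went from 17.0% ± 1.59 (SD, n = 3) to 28.7% ± 1.89 (SD, n = 2) and that of Fosl2 from 18.7% ± 0.894 to 7.09% ± 1.35, while Fos held 61.1% ± 2.63 and 62.9% ± 0.458. Within the Jun family Junb held 67.2% ± 1.21 and 66.3% ± 1.86, and Jun went from 7.86% ± 0.132 to 13.9% ± 4.94. Of the sum of Atf3, Batf and Batf3, the share of Batf went from 47.3% ± 3.32 to 77.8% ± 1.4. The shares of Fos and Junb within their families overlapped between the genotypes (exact permutation p = 0.6, two-sided). The other shares named here did not overlap, and each had an exact permutation p of 0.2, the smallest that 3 against 2 libraries can give, so the design cannot reach 0.05 for a share.

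**Figure D3:**
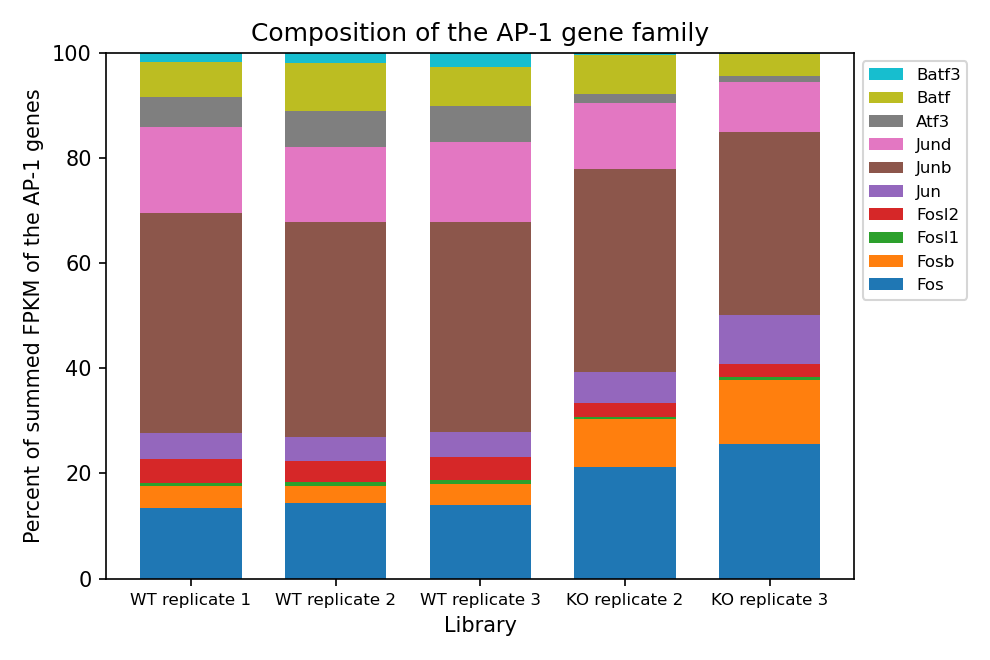
Percent of the summed FPKM of the 10 AP-1 genes that each gene took in each library, as stacked bars from 0 to 100. Fos and Fosb widen from WT to knockout, and Atf3 and Batf3 narrow.

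In WT the levels ran, from high to low, Junb, Jund, Fos, Batf, Atf3, Jun, Fosl2, Fosb, Batf3 and Fosl1. The ranges over libraries overlapped between Jund and Fos, between Batf and Atf3, and between Fosl2 and Fosb. In the knockout the order was Junb, Fos, Fosb, Jund, Jun, Batf, Fosl2, Atf3, Fosl1 and Batf3, where each neighbouring pair from Fosb through Jund and Jun to Batf overlapped. Fosb thus moved from the 8th place to the 3rd, and Batf3 from the 9th to the 10th.

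In the authors' deposited table the signed fold of knockout over WT was 6.48 for Fosb, 3.88 for Fos and 3.77 for Jun, and -2.09 for Atf3 and -4.48 for Batf3, where a minus sign marks a lower level. Those 5 members had an adjusted p under 0.05 in the authors' deposited table, as had 6.09% of all its rows. The other 5 did not, including Junb (authors' deposited fold 2.01, adjusted p 0.164), Jund (1.6, 0.677) and Batf (1.63, 0.242), which passed in limma.

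The genes most like Fos in pattern were found by the Euclidean distance between log2(FPKM + 1) profiles over the 5 libraries, each centred on its mean. They were C2, a complement protease (distance 0.24), Ier2, an immediate early gene (0.289), Ccdc80 (0.29), Jun (0.33) and Phlda1 (0.331). C2 stood at 0.23, 0.2 and 0.17 FPKM in WT and at 2.76 and 5.69 FPKM in the knockout. It met the test's minimum in the knockout alone. At such low levels the added 1 FPKM shrinks the change, so the likeness of C2 to Fos depends on that choice. Jun was nearest to Fos, followed by Egr2, C2, Dusp5 and Phlda1. Fosb, which changed more, was the 59th nearest gene to Fos. Atf3 was nearest to Maged1 (0.109), which reached 1 FPKM in WT alone, and Lipa, a lysosomal acid lipase (0.131). Batf3, the other member that fell, was the 2040th nearest to Atf3.

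Some members lie close together in the genome. Batf3 and Atf3, which both fell, are 61.4 kb apart on chromosome 1. Nsl1, a kinetochore gene 13.9 kb from Batf3, differed by -0.07 (log2, not called), while Mfsd7b, 72.2 kb from Batf3, fell by 0.42 (adjusted p = 0.0489). Fos and Batf, which both rose, are 209 kb apart on chromosome 12 with Jdp2 between them, a repressor that pairs with Jun, which stood at 29.55, 23.71 and 25.57 FPKM in WT and at 32.21 and 32.66 FPKM in the knockout (log2 difference 0.30, adjusted p = 0.0773). Of 53 other tested genes within 100 kb of a member, 3 rose and 4 fell, or 13.2%, below the 22.1% over all tested genes. Gdf15, a stress-induced cytokine 65.3 kb from Jund, rose from a mean of 11.8 to one of 28.2 FPKM (adjusted p = 0.00104), and Klf1, an erythroid factor 71.6 kb from Junb, fell by 0.67 (log2, adjusted p = 0.0102).

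In the GENCODE annotation Jun, Junb and Jund have 1 exon each, Batf and Batf3 have 3, and the rest have 4. The pentamer ATTTA, the core of the elements that shorten the life of many immediate early mRNAs, occurred 4 times in the 3′ untranslated region of Fos, or 4.91 per kilobase, more than in 93.0% of 9739 tested genes. Junb had 4.12 and Jun 3.24 per kilobase against a median of 1.34. Fosb, the member that rose the most, had 0.466 per kilobase, and Batf and Batf3 had none, like 31.2% of tested genes. Some members overlap another gene in the GENCODE gene spans: Fosl1 with Ccdc85b, Jun with Junos, Junb with Prdx2, Jund with Gm11175 and Atf3 with Gm24748. By the RefSeq positions, however, Prdx2 lies 2.1 kb from Junb. No source used here says whether strand entered the counting, so overlapping reads of these pairs may be mixed.

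Genes around AP-1 were counted by role, from lists chosen with earlier results of these data known. For comparison with each count, 9.08% of all tested genes rose and 13.0% fell. A gene that reached 1 FPKM in 1 genotype alone had to differ to be tested, so each is named below with the count that leaves it out. Of 15 tested other basic leucine zipper genes that can pair with AP-1 proteins, 0 rose and 5 fell, among them Batf2 (by 1.04 on the log2 scale), Maf (by 1.04), Nfe2l2 (by 0.49) and Bach1 (by 0.45). Their median log2 difference was -0.07. Maf acts in macrophages, and Nfe2l2 drives antioxidant genes. Atf4, the most abundant member of this list, differed by 0.17 (adjusted p = 0.291). Batf2 reached 1 FPKM in WT alone, and without it 4 of 14 fell. Without knockout replicate 2, 3 genes passed instead of 5. Under other settings up to 2 genes of the list rose, as with upper-quartile scaling and quantile normalization.

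Of 29 genes of the MAP kinase cascade upstream of AP-1, 2 rose, 3 fell and 24 did not pass. Rasgrp1, a Ras activator used by mast cells, rose by 0.87 and Map3k7 (TAK1) by 0.56 on the log2 scale, while Map3k1 fell by 0.83, Mapk3 (ERK1) by 0.45 and Map2k1 (MEK1) by 0.40. Of 14 factors that act at immediate early promoters 0 rose and 3 fell, Mef2c by 0.83, Mrtfa by 0.41 and Mef2a by 0.34. Neither the 29 cascade genes nor these 14 factors passed more often than all tested genes, of which 22.1% did. Srf stood at 18.41, 17.74 and 18.17 FPKM in WT and at 17.79 and 18.31 FPKM in the knockout, so its groups overlapped. Mef2c reached 1 FPKM in WT alone, and without it 2 of 13 fell. In that list 1 gene passed when WT replicate 1, WT replicate 2 or knockout replicate 2 was left out.

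Of 16 genes that end or limit AP-1 activity, by dephosphorylating MAP kinases, degrading AP-1 mRNAs or silencing the proteins, 4 rose and 1 fell. Dusp4 rose by 1.23, Dusp1 by 0.70 and Dusp6 by 0.61, all phosphatases of MAP kinases, and Zfp36, which binds ATTTA-rich mRNAs, rose by 0.50. Uchl1, a deubiquitinase, fell by 0.80 but reached 1 FPKM in WT alone, and without it 0 of 15 fell. Without WT replicate 1, 2 or 3 this count of 5 called genes was 3, 2 and 3. Of 12 proteins that bind DNA beside AP-1 or BATF, Nfatc1 rose by 0.48 and Nfatc2 by 0.37. Irf8 fell by 1.87, Irf4 by 0.72, Spi1 (PU.1) by 0.57 and Stat3 by 0.36. Irf8 stood at 13.62, 16.93 and 13.64 FPKM in WT and at 4.13 and 2.57 FPKM in the knockout, and Irf4 reached 1 FPKM in WT alone, without which 3 of 11 fell.

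Of 21 tested genes known as AP-1 targets, 11 rose and 5 fell, with a median log2 change of 0.52. Plau, the urokinase gene, rose by 1.17, the chemokine gene Ccl4 by 1.01 and Ptgs2 (cyclooxygenase 2) by 0.95. Timp1, an inhibitor of metalloproteinases, fell by 1.22, Hmox1, a haem oxygenase, by 1.16 and Ccnd1 (cyclin D1) by 0.67. Vim differed by -0.02 and Ccl3 by 0.37 without passing. The count depended on single libraries and on sex: 6 rose and 4 fell without WT replicate 2, 4 and 4 without knockout replicate 3, and 3 and 4 with sex as a covariate. Il4, Il13, Il6, Tnf and Csf2, cytokine genes that activated mast cells also use, were among the 11 that rose, and Il4 is on the basophil list too. Csf2 reached 1 FPKM in the knockout alone, and without it 10 of 20 rose, with a median of 0.44. With no minimum level, 9 of the 21 rose.

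Of 17 tested other immediate early genes, 14 rose and 1 fell, with a median log2 change of 1.18. Egr3 rose by 2.30, Nr4a1 by 2.23 and Egr1 by 2.06, whereas Klf4 fell by 1.80. Egr1 stood at 115.71, 115.66 and 163.43 FPKM in WT and at 477.3 and 616.55 FPKM in the knockout, and Klf4 at 16.73 to 17.52 FPKM in WT and 4.64 and 3.84 FPKM in the knockout. Myc (0.34) and Ier5 (0.07) did not pass. At least 11 of these genes rose under each alternative setting listed in the closing section. Nr4a2 met the test's minimum in the knockout alone, and without it 13 of 16 rose, with a median of 1.22. Dusp1 and Zfp36 are also on the list of genes that limit AP-1. Handling of cells is known to induce immediate early and heat shock genes. Of 12 heat shock and handling genes 3 rose: Dnajb1 by 1.24, Sqstm1 by 0.72 and Gadd45a by 0.25. Dnajb1 stood at 27.19, 31.31 and 28.37 FPKM in WT and at 55.3 and 87.89 FPKM in the knockout, also highest in replicate 3. Hspa8 differed by -0.05 and Hsp90ab1 by 0.03, and Hspa1a and Hspa1b were under 1 FPKM in every library. The part of handling in the levels of the AP-1 genes was not tested.

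**Figure D4:**
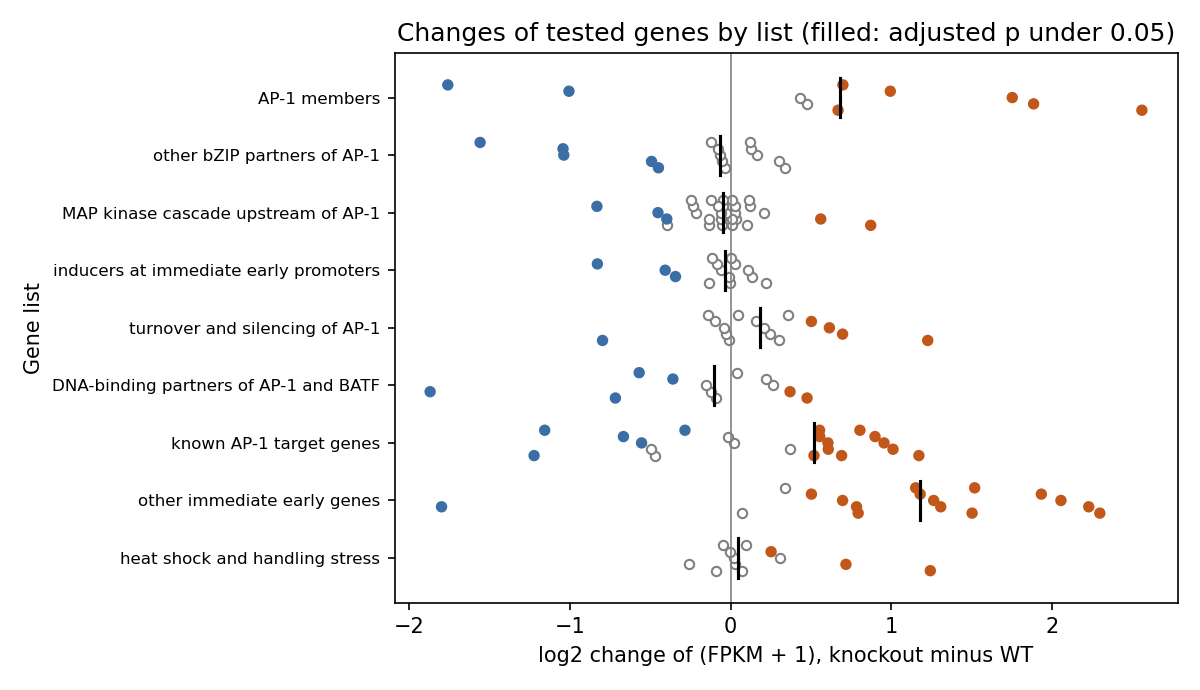
Log2 change of (FPKM + 1), knockout minus WT, of each tested gene (points) in 9 gene lists, with the list median as a black line. Filled points passed at a limma adjusted p under 0.05, orange higher and blue lower in the knockout, and the other immediate early genes lie mostly to the right while the MAP kinase genes centre on 0.

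Cell type markers moved with the genotype as well, in a comparison where 9.08% of all tested genes rose and 13.0% fell. The summed level of 13 mast cell markers was 12160 to 13950 FPKM in WT and 32750 and 28590 FPKM in the knockout, where 10 rose and 0 fell, among them Cpa3 (by 1.39) and Kit (by 1.21). Most of that sum was Cpa3, at 6553.65 to 7576.39 FPKM in WT and 19654.7 and 17551.1 FPKM in the knockout. Cma1 (0.35, limma adjusted p = 0.471), Mcpt4 (0.34, adjusted p = 0.424) and Hdc (-0.10, adjusted p = 0.449) did not pass. Of 6 basophil markers 4 rose, with sums of 5957 to 7504 FPKM in WT and 7789 and 7559 FPKM in the knockout. The basophil proteases Mcpt8 (-0.22, adjusted p = 0.306) and Prss34 (-0.06, adjusted p = 0.862), the most abundant of the 6, did not pass. Of 14 monocyte and macrophage markers 12 fell, with sums of 6430 to 8306 FPKM in WT and 2910 and 2686 FPKM in the knockout. The mast cell and macrophage markers moved beside the rise of most AP-1 genes and the fall of Maf.

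All 6 tested dendritic cell markers fell, with sums of 1483 to 2020 FPKM in WT and 296.5 and 148.8 FPKM in the knockout, beside the falls of Batf3 and of Irf8, which is on that list too. The others were Cd74, H2-Aa, H2-Ab1, Itgax and Ccr7, and the sums were mostly the MHC class II presentation genes Cd74, H2-Aa and H2-Ab1. Cd74 alone stood at 930.45 to 1277.45 FPKM in WT and at 181.38 and 95.93 FPKM in the knockout. The defining dendritic cell genes Xcr1, Clec9a, Flt3, Zbtb46 and Cd209a were at or under 0.57 FPKM in every library. Neutrophil markers fell in 10 of 11 cases, with sums of 22430 to 33060 FPKM in WT and 16670 and 12840 FPKM in the knockout. Of these 11, 4 passed without WT replicate 2 and 5 without knockout replicate 3. Of 6 eosinophil markers 1 rose (Ccr3, by 1.00), a call that ended without WT replicate 2 or knockout replicate 3, with sums of 5089 to 7477 FPKM in WT and 6915 and 9158 FPKM in the knockout. The 7 lymphocyte markers in the table summed to 2.06 to 3.99 FPKM, and the 8 erythroid and megakaryocyte markers to 346.9 to 410.5 FPKM, where 2 rose and 3 fell, or 0 and 1 with sex as a covariate. Between the knockout libraries, replicate 3 had the lower mast cell sum but the higher level in 8 of the 13 markers, Kit among them, and it was the library with the highest Fos, Fosb and Jun. How far these cell types account for the level of any AP-1 gene was not tested.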

How the data were processed

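Oligo(dT)-selected RNA of cultured bone marrow cells was sequenced on Illumina HiSeq, per the labels' protocols. Tools listed in the submitters' processing notes, with no role, are edgeR, HISAT and StringTie 1.2.1, and the listed build is mm10. Annotation and counting: not given in the sources used here.

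Per the file headers, the authors deposited FPKM with 2 decimals for each gene in each library. They also deposited a signed fold (a score that matches the ratio of group means, inverted and negative where the knockout is lower, for 99.73% of rows within a relative tolerance of 0.001), p-values and adjusted p-values. Symbols that a spreadsheet had turned into dates were restored from gene numbers in 23 rows, and 14603 of 14639 gene numbers matched RefSeq GRCm38.p6.

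Here limma 3.58.1 (R 4.3.3) fitted log2(FPKM + 1) to a single genotype term, with a mean-variance trend (3 residual degrees of freedom), over genes with 1 FPKM or more in at least 2 libraries. The Benjamini-Hochberg adjustment ran over the 11365 genes tested, and a gene was called at an adjusted p under 0.05. Fold changes are knockout minus WT on the log2(FPKM + 1) scale, which understates the change of low genes. Shares of summed FPKM were compared by an exact permutation test. The fitting step was first tested on simulated data. Alternatives changed the pseudocount, filter, scaling, variance model, sex term, replicate block and libraries used.

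All members are named. Of every other list, the rule named up to 3 called genes in each direction with the largest change and up to 2 not called with the highest mean level. A gene that this rule would name is not reported here. The cytokine genes among the targets, Jdp2, the genomic neighbours, called genes past the third of a list and some marker genes fall outside that rule and were chosen after their values were seen. The members and lists were chosen with earlier results of these data known. Promoters and gene positions come from RefSeq GRCm38.p6, and exons and 3′ untranslated regions from GENCODE M21.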

Additional observations from a re-analysis of the deposited data

How the results depend on the processing

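Over 17 alternatives the members gave 169 values, of which none reversed, 160 kept their call, 1 lost it (Batf without knockout replicate 2) and 8 gained one (Fosl1 without knockout replicate 2, and Fosl2 in 7 settings, including the median-of-ratios and upper-quartile scalings and the replicate block). Between 8 and 9 members passed in every alternative. With a mean of at least 5 FPKM, Fosl1 was not tested.

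Over all genes, 2507 passed. With sex as a covariate 1312 passed, and leaving out single libraries gave 1623 (without WT replicate 2) to 2659 (without knockout replicate 2). The cause was not tested. Of the calls, 41.2% were upward, against 52.3% with upper-quartile scaling. Replicate numbers 2 and 3 occur in both genotypes. Deviations from the group means of samples with the same number had correlations of -0.0292 and 0.0985 for numbers 2 and 3. With 2 knockout libraries these deviations mirror each other, so the check cannot decide whether the numbers are pairs. The numbers were not taken as pairs in the main fit, and the replicate block was an alternative. With 1 knockout library left, that library is assumed to vary like the WT group. With sex as a covariate, the calls fell to 2 of 16 genes that limit AP-1, 3 of 12 DNA-binding partners, 1 of 14 promoter factors and 1 of 8 erythroid and megakaryocyte markers. In all fits with sex as a covariate the knockout was set against WT replicate 1 alone, the only male WT library. With the replicate block 2058 genes passed, with Fosl2 among them (log2 change 0.45, adjusted p = 0.0364).

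As a share of its own family instead of all members, the knockout minus WT difference was 1.8 percentage points for Fos, 11.7 for Fosb and 6.04 for Jun. Depth is unknown, and with 2 knockout libraries the spread of that group rests on a single difference, which was large for Fos, Fosb and Jun.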
